A study of Mus musculus with 23 samples.

Results

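Lewis lung carcinoma (LLC) is a transplantable mouse tumour line that grows in culture and is widely used as a source of tumour-secreted factors. Of the 23 Affymetrix expression arrays in the study, which cover 8 subclones of LLC, the 6 described here are the 3 of subclone 23 and the 3 of subclone 24. Per the labels, every subclone was obtained from the parental line by limiting dilution, so each stands for 1 clone. All 8 subclones were grown with 10% foetal bovine serum, penicillin and streptomycin and were then held for 24 h in serum-free FreeStyle medium, the setting in which conditioned medium is prepared. No genotype, added agent or host differs between the subclones according to the labels, and no parental culture is among the arrays. The 3 arrays of a subclone are labelled biological replicates, and nothing says that they came from cultures kept apart, so p-values measure the spread between these arrays, which may in part be technical.

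The pair was selected on measured values from this same contrast. Both subclones were near the lowest intensities of the arrays for Bmp2, whereas Slit2 was high in one and near the lowest intensities in the other and Tesc was the reverse. Levels of Bmp2, Slit2 and Tesc, and of Dppa4 and Igf2r, which were named together with the pair, are therefore given as description and without a test. The tests of the other genes set the size of each difference against the spread between arrays. They are not independent evidence that this pair stands apart from other pairs of subclones.

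The genes that define the pair have well-known roles. SLIT2 is a secreted protein that signals through ROBO receptors and repels growing axons and migrating cells, and tescalcin, the product of Tesc, is an EF-hand calcium-binding protein that associates with the sodium/hydrogen exchanger NHE1. BMP2 is a secreted ligand of the bone morphogenetic protein family. DPPA4 is a chromatin-bound protein best known from pluripotent cells and early embryos. IGF2R, the product of an imprinted gene, carries lysosomal enzymes tagged with mannose 6-phosphate and removes the growth factor IGF2 from the cell surface.

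Bmp2 had intensities of 8.58, 9.80 and 5.90 in the arrays of subclone 23 and of 9.85, 7.96 and 20.5 in those of subclone 24. The highest of these 6 values belonged to subclone 24, and the groups overlapped. On the log2(intensity + 16) scale used for all levels here, the Bmp2 means were 4.59 ± 0.12 (SD, n = 3) and 4.82 ± 0.32 (SD, n = 3), a difference of -0.23. The lowest Bmp2 mean among the other 6 subclones, that of subclone 6, was 5.23, and the highest was 9.55.

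Slit2 intensities were 480.0, 456 and 436 in subclone 23 and 10.5, 8.44 and 12.1 in subclone 24. Tesc ran the other way, at 3.07, 3.35 and 3.32 in subclone 23 and 439.7, 466 and 477 in subclone 24. For both genes the arrays of a subclone lay close together and the groups were far apart. The log2 difference, given throughout as subclone 23 minus subclone 24 ± its standard error from limma, was 4.17 ± 0.15 for Slit2 and -4.63 ± 0.11 for Tesc. A fold on this scale is too small for genes of low intensity, and it came to 18-fold for Slit2 and 24.8-fold for Tesc. The other probe sets of Slit2 were less far apart, with differences of 0.48 and 0.67, and their means over all arrays were 4.97 and 4.56. The other Tesc probe set differed by -3.08.

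Dppa4 had intensities of 1864, 1853 and 1890.1 in subclone 23 against 16.8, 19.9 and 25.6 in subclone 24, a log2 difference of 5.69 ± 0.09. Igf2r was measured in both subclones, at 398, 399.7 and 371 in subclone 23 and 2557, 2590.1 and 2657 in subclone 24, a difference of -2.69 ± 0.05. A second Igf2r probe set differed by -2.62. Subclone 23 was the one that stood apart for Igf2r, since the means of the other 6 subclones lay between 10.83 and 11.45, around the 11.35 of subclone 24 and above the 8.66 of subclone 23. For the other genes of the selection the remaining subclones were spread out. Dppa4 means ran from 4.76 to 9.38 in the other 6 subclones, those of Slit2 from 5.3 to 7.33 and those of Tesc from 5.38 to 7.57. No other subclone was as high in Slit2 as subclone 23 or as low in Tesc.

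To show the sequence before the start of genes with large differences, the 250 bases before the annotated start are printed for 2 genes that were low in subclone 24 (Slit2 and Cd34) and 2 that were low in subclone 23 (Tesc and Crabp1), from RefSeq's table of assembly GRCm38.p6, all on the + strand, with each CG dinucleotide in capitals. Cd34 codes for a sialomucin of blood stem cells, endothelium and some stromal cells, and Crabp1 for a cytoplasmic retinoic acid-binding protein, and both were among the largest differences given further on. The regions are chr5:47982905-47983154 for Slit2, chr1:194938571-194938820 for Cd34, chr5:118027493-118027742 for Tesc and chr9:54764498-54764747 for Crabp1.
Slit2: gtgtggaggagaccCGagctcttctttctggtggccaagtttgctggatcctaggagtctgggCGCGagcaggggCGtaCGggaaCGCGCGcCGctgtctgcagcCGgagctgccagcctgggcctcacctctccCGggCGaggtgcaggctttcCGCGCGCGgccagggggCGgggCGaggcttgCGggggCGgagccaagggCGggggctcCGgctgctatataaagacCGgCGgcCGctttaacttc
Cd34: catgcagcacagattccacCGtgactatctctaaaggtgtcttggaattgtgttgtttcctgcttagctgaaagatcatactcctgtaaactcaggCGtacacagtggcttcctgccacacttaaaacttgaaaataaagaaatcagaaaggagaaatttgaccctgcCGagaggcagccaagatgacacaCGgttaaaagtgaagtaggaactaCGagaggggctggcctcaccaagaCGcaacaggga
Tesc: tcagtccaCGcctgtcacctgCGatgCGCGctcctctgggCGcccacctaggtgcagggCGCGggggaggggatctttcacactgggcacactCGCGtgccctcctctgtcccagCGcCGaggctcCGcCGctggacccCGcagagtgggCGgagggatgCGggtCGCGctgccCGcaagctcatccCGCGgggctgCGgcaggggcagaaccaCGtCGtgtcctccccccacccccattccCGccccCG
Crabp1: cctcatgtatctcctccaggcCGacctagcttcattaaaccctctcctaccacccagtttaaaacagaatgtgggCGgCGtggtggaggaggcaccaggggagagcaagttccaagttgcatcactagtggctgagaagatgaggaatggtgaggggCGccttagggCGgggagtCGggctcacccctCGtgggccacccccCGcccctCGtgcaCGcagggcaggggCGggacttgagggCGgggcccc

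The Slit2 and Tesc regions held 25 and 26 CG dinucleotides, against 6 for Cd34 and 12 for Crabp1. GC made up 69.6% of the Slit2 region, 73.2% of the Tesc region, 46.4% of the Cd34 region and 63.6% of the Crabp1 region. A CG reads the same on both strands, and 96.8% of the 14452 tested genes with an entry had at least 1 in these 250 bases, with a median of 13. The median was 11 for the 145 genes with an entry among those called higher in subclone 23 and 12 for the 103 among those called lower. These counts describe the reference sequence, and methylation was not measured.

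Across the 18193 genes tested, 321 were called, that is, had a Benjamini-Hochberg adjusted p under 0.05 in limma and a log2 difference of at least 1, which is a 2-fold difference. They were 1.76% of the genes and include Slit2, Tesc, Dppa4 and Igf2r, from the selection of the pair. Subclone 23 was higher for 194 of them (1.07% of the genes tested) and lower for 127 (0.698%), and for all 321 the 3 arrays of one subclone lay beyond the 3 of the other. The difference exceeded 2 log2 units for 64 genes, 39 higher and 25 lower in subclone 23. By the adjusted p alone (under 0.05, whatever the size), 5831 genes passed (32.1%), 3240 higher (17.8%) and 2591 lower (14.2%) in subclone 23. Counts of list members below use this wider rule and leave out the genes of the selection, and those shares are the ones to read them against. The median difference over all genes was 0.01.

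**Figure D1:**
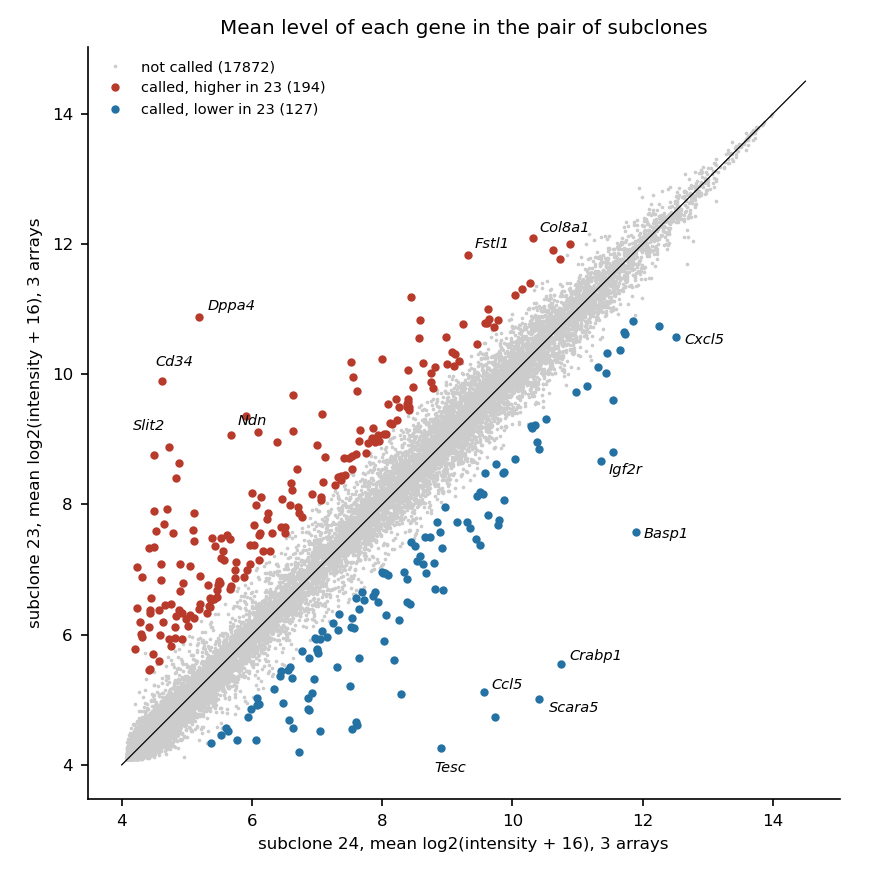
Mean log2(intensity + 16) over 3 arrays in subclone 24 (horizontal axis) and subclone 23 (vertical axis), with 1 point per gene and the line of equal levels. The 194 genes called higher in subclone 23 are red and the 127 called lower are blue, with Dppa4 and Cd34 far from the line at the upper left and Tesc, Scara5 and Crabp1 at the lower right.

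The 6 arrays had medians of linear intensity between 41.5 and 45.7 and means between 422 and 438, and no pair of arrays held identical values. The root mean square log2 distance over all genes was 0.19 to 0.21 for the 6 pairs of arrays within a subclone and 0.38 to 0.40 for the 9 pairs between the subclones. Of all 28 pairs of subclones, 8 had fewer called genes than this pair and 19 had more. The epithelial keratin genes Krt8 and Krt18 were well measured, with levels of 10.42 and 11.20 in subclone 23 and 11.04 and 11.84 in subclone 24, and so were the stromal genes Col3a1, Dcn and Pdgfra. The epithelial genes Epcam (7.72 in subclone 23, 7.35 in subclone 24) and Krt19 (6.57, 5.92), the leukocyte genes Cd68 (6.90, 6.50) and Csf1r (7.02, 7.19) and the lung epithelial gene Sftpb (6.64, 6.48) were at low to moderate levels. The endothelial gene Tek (5.42, 5.27) and the fibroblast gene Pdgfrb (4.59, 5.46) were above 5.3 in one subclone each. The leukocyte genes Ptprc and Cd3e, the endothelial genes Pecam1, Cdh5 and Kdr, the fibroblast genes Col1a1 and Thy1, the epithelial gene Cdh1 and the lung epithelial genes Nkx2-1, Sftpc and Scgb1a1 had means below 5.3 in both subclones. That level stands in here for very low intensity, since no detection calls were used, and a difference that starts below it has no firm size.

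Among the genes highest in subclone 23 relative to subclone 24, Cd34 had intensities of 979, 894 and 948 against 6.97, 8.91 and 10.2 (log2 difference 5.28 ± 0.10, adjusted p = 1.6e-17). The 2 groups of Cd34 values lay far apart. App, the amyloid precursor protein gene, had 376, 376 and 395 in subclone 23 and 13.8, 11.5 and 14.7 in subclone 24 (difference 3.77 ± 0.07, adjusted p = 4.11e-17). Of its 3 other probe sets, 1 differed by 4.65, while the remaining 2 were low throughout and differed by -0.13 and 0.18. Ndn, an imprinted gene for the growth-restraining protein necdin, had 524, 512 and 532 against 36.4, 39.3 and 30.9 (difference 3.39 ± 0.09, adjusted p = 1.58e-15), and 6 of its 7 other probe sets passed in the same direction, up to 6.12. Ankrd1, a textbook target of the YAP coactivator, had 528, 563 and 519 against 45.9, 63.5 and 49.3 (difference 3.01 ± 0.11, adjusted p = 3.98e-13). All 3 arrays of subclone 23 were above all 3 of subclone 24 for each of these genes.

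The remaining genes with the largest positive differences were 3110039M20Rik (4.26), Atp6v0e2, a subunit gene of the vacuolar proton pump (3.57), Hoxb5os, an antisense transcript of the Hoxb cluster (3.45), Fam13c (3.41), the mucin-type glycosyltransferase gene Galnt15 (3.22), Tmem98 (3.06), the splicing factor gene Celf2 (3.05), Crip1 (3.04) and Mageh1 (2.92). Their adjusted p-values ran from 5.19e-19 for 3110039M20Rik to 3.71e-12 for Tmem98. Crip1 and Hoxb5os had means of 6.64 and 5.91 in subclone 24, while the other 7 were below 5.3 there.

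In the other direction, Scara5, a scavenger receptor gene for ferritin, had intensities of 17.2, 15.2 and 16.3 in subclone 23 and 1415, 1284 and 1329.7 in subclone 24 (difference -5.40 ± 0.08, adjusted p = 5.95e-19). A second Scara5 probe set, low in these arrays, differed by 0.14 and did not pass. Crabp1 had 31.5, 25.9 and 36.2 against 1693, 1689 and 1749 (difference -5.20 ± 0.07, adjusted p = 5.19e-19). Both genes were thus high in subclone 24 in every array and low in subclone 23 in every array. Itih5, which codes for a hyaluronan-associated secreted protein, had 10.8, 11.8 and 9.02 against 810.3, 856 and 830.5 (difference -5.00 ± 0.07, adjusted p = 6.37e-19), and its 2 other probe sets differed by -4.21 and -2.02. Ccl5, the gene for a chemokine that attracts T cells and monocytes, had 16.6, 20.7 and 18.8 against 707, 823 and 690.0 (difference -4.44 ± 0.13, adjusted p = 1.12e-14). Basp1, a membrane-bound and nuclear protein gene, had 182, 160.4 and 184 against 3822, 3695 and 3832 (difference -4.31 ± 0.05, adjusted p = 1.58e-19). Basp1 was well measured in both subclones, so that its 19.9-fold difference does not start from the lowest intensities.

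Selenop, the gene for the plasma selenium carrier, was likewise measured on both sides, at 445, 404 and 452 in subclone 23 and 2981, 2957 and 3002 in subclone 24 (difference -2.74 ± 0.07, adjusted p = 2.53e-15). The other large negative differences were those of Limch1 (-3.20), the sodium channel gene Scn9a (-3.01), Wtip, Tmem185b (-2.93), Cxxc4 (-2.56), Slc35f3 (-2.53) and the tetraspanin gene Tspan8 (-2.53), with adjusted p-values from 1.32e-16 for Wtip to 6.3e-12 for Slc35f3. For Tspan8, none of the 4 other probe sets passed, with differences between -0.27 and -0.08. Of these 7 genes, Cxxc4 had a mean of 5.62 in subclone 23 and the other 6 were below 5.3 there.

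A mean below 5.3 in one subclone and of at least 7.3 in the other, a gap of at least 2 log2 units, was found for 25 genes, 16 high in subclone 23 and 9 high in subclone 24. The 16 included Dppa4, Cd34, Slit2, App, Celf2, the fatty acid receptor gene Cd36, the matricellular growth regulator gene Ccn4, the leukotriene synthase gene Ltc4s and the mesodermal transcription factor gene Foxf1. The 9 included Scara5, Itih5, Tesc, Ccl5 and Afp, the alpha-fetoprotein gene, whose difference was -2.29. Foxf1 differed by 2.33 and Ltc4s by 2.77. Foxf1, Ltc4s and Afp lie outside the rule for named genes and were chosen after their values were seen. An entry in the promoter table was found for 19 of the 25 genes, with a median of 8 CG dinucleotides, and 36.8% of them had at least 12, against 53.3% of all genes with an entry. These 19 genes are few, were picked by their levels in this same contrast and include Slit2 and Tesc. The shares are therefore a description, and whether the promoters of such genes differ was not tested.

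**Figure D2:**
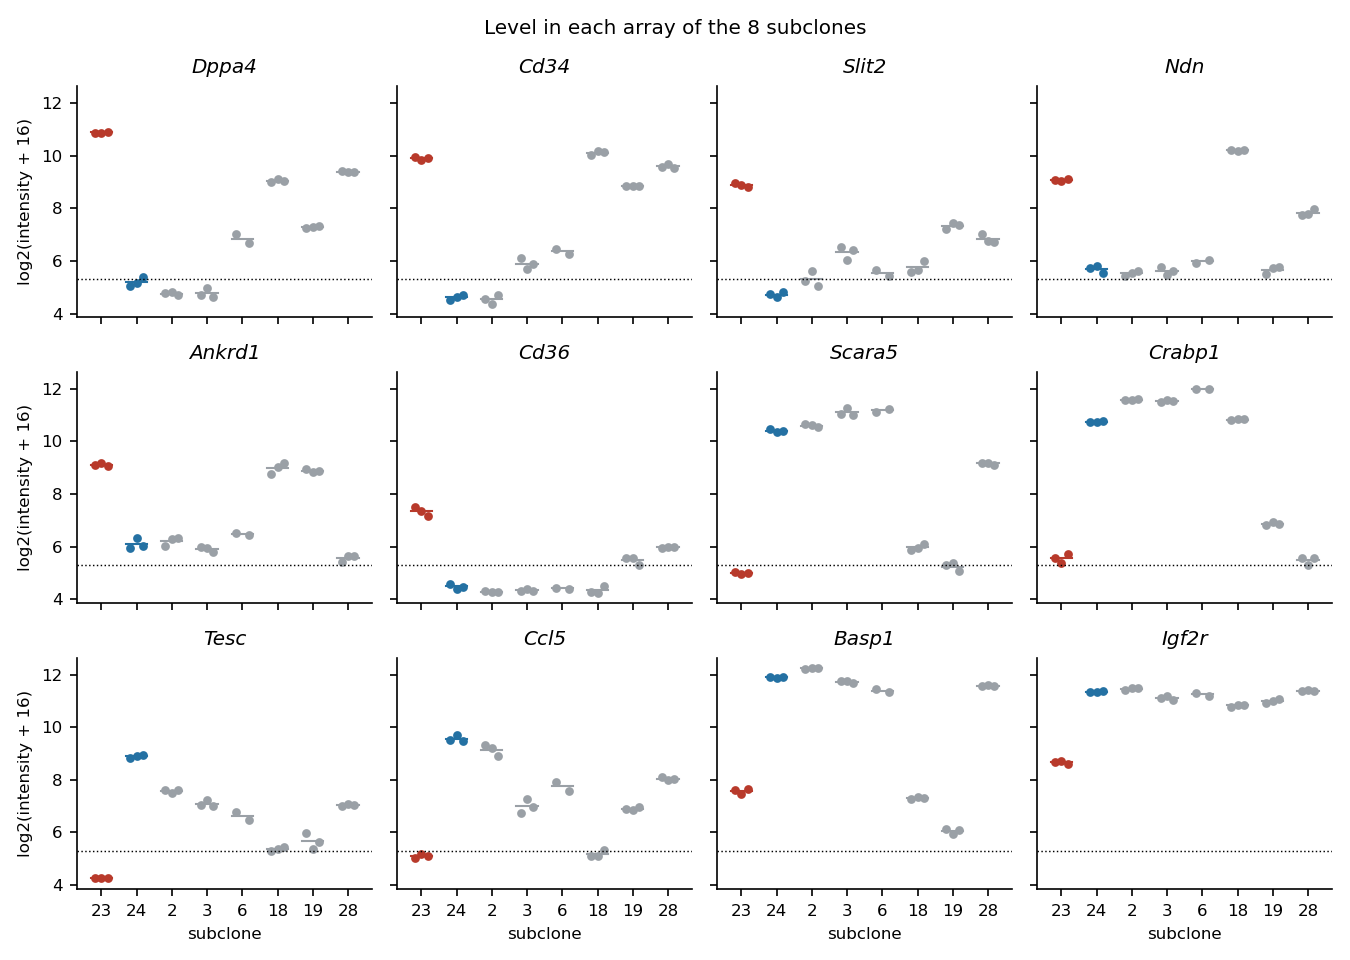
Log2(intensity + 16) of 12 genes (vertical axes) in each array of the 8 subclones (horizontal axes), with subclone 23 in red, subclone 24 in blue, the other 6 in grey, short lines for subclone means and a dotted line at 5.3. Arrays of a subclone lie close together. For Igf2r only subclone 23 lies low, whereas the other 6 subclones are spread between or beyond the pair for Cd34, Crabp1 and Basp1.

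Ligands, receptors and partners of the genes that define the pair were examined next. Besides Slit2, 9 Slit and Robo pathway genes were measured, of which 2 were higher and 2 lower. The receptor gene Robo3 (0.54) was higher and the ligand gene Slit1 (-0.35) lower. The receptor genes Robo1 (-0.08) and Robo2 (0.36) did not pass. Of 39 other guidance genes (semaphorins, netrins, ephrins and their receptors), 11 were higher and 8 lower. Efnb2, for the transmembrane ligand ephrin-B2, had intensities of 879, 854 and 912 in subclone 23 and 342, 343 and 331 in subclone 24 (difference 1.34 ± 0.06, adjusted p = 3.71e-12). Sema3c, a secreted semaphorin gene, differed by 1.22 ± 0.06 (adjusted p = 4.26e-11). Among 17 EF-hand and Na/H exchange genes other than Tesc, 6 were higher and 2 lower, and the largest difference was 0.46 for Rcan1, an inhibitor of calcineurin. Rcan1 lies on chromosome 16, where the median difference was 0.38, as described further on.

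The other pluripotency genes differed little. Of 25 pluripotency and germline genes besides Dppa4, 1 was higher by limma's adjusted p (Dnmt3l, 0.34) and 0 were lower, against 1 and 1 at an unadjusted p under 0.05. Dnmt3l lies on chromosome 10, where the median difference was 0.29, as described further on. Dppa2, the usual partner of Dppa4, differed by -0.06, Pou5f1 by 0.07, Nanog by -0.14 and Sox2 by 0.00, and 16 of the 25 genes had means below 5.3 in both subclones.

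Of 38 imprinted genes other than Igf2r, 10 were higher and 5 lower, with a list median of 0.02. Besides Ndn, the amino acid transporter gene Slc38a4 (1.99 ± 0.09, adjusted p = 4.29e-12) and the neurabin gene Ppp1r9a (1.30 ± 0.13, adjusted p = 2.09e-07) were called higher. Airn, the antisense transcript from the Igf2r locus, differed by -0.18, and Igf2, the ligand gene, by -0.01. Among 38 genes of lysosomal enzymes and mannose 6-phosphate sorting, 11 were higher and 11 lower. Ctsf, a lysosomal cysteine protease gene, had the largest difference (1.46 ± 0.11, adjusted p = 7.93e-09), although its second probe set differed by 0.26 and did not pass. The Ctsf mean in subclone 24 was below 5.3. M6pr, for the second mannose 6-phosphate receptor, differed by -0.19 and Ctsc, for cathepsin C, by -0.97, both past the test.

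Of 33 genes for BMP, activin and TGF-beta ligands and their inhibitors other than Bmp2, 8 were higher and 2 lower. Those higher were Fstl1, Bmper, Ltbp2, Fstl3, Grem1, Fst, Twsg1 and Ltbp1, which code for extracellular binding proteins rather than ligands, and those lower were Inhba and Inhbb, which code for activin subunits. Fstl1 had intensities of 3474, 3726 and 3691 against 598, 635 and 633 (difference 2.51 ± 0.04, adjusted p = 5.06e-18). Bmper, for a secreted BMP-binding protein, had 53.4, 39.2 and 47.6 against 4.93, 3.19 and 3.45 (difference 1.66 ± 0.11, adjusted p = 1.18e-09) and Ltbp2, for a microfibril protein, differed by 1.13 ± 0.09. Inhba differed by -0.57 and Inhbb by -0.54. Fstl1 on chromosome 16, Fstl3 on chromosome 10 and Inhbb on chromosome 1 differed in the direction of most genes there, as described further on. Without members on these chromosomes, 6 of 25 genes were higher and 1 lower. The list median was -0.02, and 12 of the 33 genes had means below 5.3 in both subclones. The Bmper mean was below 5.3 in subclone 24.

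Of 56 growth factor genes, 19 were higher and 6 lower, with a median of 0.07. Angptl4, for a secreted inhibitor of lipoprotein lipase, had 1724, 1827 and 1884 in subclone 23 and 355, 375 and 371 in subclone 24 (difference 2.25 ± 0.09, adjusted p = 1.32e-12). Vegfd, a ligand gene of lymphatic endothelial growth, had 1437, 1481 and 1587 and 537, 478 and 459 (difference 1.58 ± 0.07, adjusted p = 3.02e-12). Each array of subclone 23 was thus above each of subclone 24 for both genes. The matricellular genes Ccn4 (2.51 ± 0.12, adjusted p = 1.36e-11) and Ccn3 (2.32 ± 0.09, adjusted p = 3.72e-13) and the IGF-binding protein gene Igfbp7 (1.11 ± 0.06) were also called higher. Stc1, for the hormone stanniocalcin, was the called gene that was lower (-2.04 ± 0.09, adjusted p = 5.52e-12).

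Of 43 cytokine and chemokine genes, 10 were higher and 10 lower, with a median of -0.03. The called genes that were lower in subclone 23 were all chemokine genes. Besides Ccl5, Cxcl2 had intensities of 85.7, 84.5 and 92.4 against 477, 471 and 465 (difference -2.23 ± 0.06, adjusted p = 1.67e-15), and Cxcl5, for another neutrophil attractant, had 1567, 1577 and 1369 against 5530.0, 6156 and 5832 (difference -1.95 ± 0.08, adjusted p = 7.79e-13). The called genes that were higher were the alarmin gene Il33, at 833, 796 and 885 against 159, 182 and 199.8 (difference 2.12 ± 0.09, adjusted p = 3.15e-12), and Lif, a cytokine gene of the IL-6 family (1.16 ± 0.09, adjusted p = 1.49e-08). The second Lif probe set differed by 0.21 and did not pass.

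Of 41 genes for extracellular proteases and their inhibitors, 15 were higher and 8 lower. Adam8, a membrane metalloprotease gene, had 501, 438 and 502 against 56.4, 72.3 and 76.3 (difference 2.56 ± 0.10, adjusted p = 1.22e-12), and the plasminogen activator inhibitor gene Serpinb2 differed by 1.91 ± 0.12. The stromelysin genes Mmp3 (1.15 ± 0.05) and Mmp10 (1.07 ± 0.08) and Adam19 (1.04 ± 0.08) were called higher, whereas Timp3, for a metalloprotease inhibitor, was lower (-1.40 ± 0.11, adjusted p = 1.65e-08). The second Adam19 probe set differed by 0.31 and did not pass. Among 34 collagen genes, 7 were higher and 3 lower, and Col8a1, with 4163, 4359 and 4526 against 1242, 1271 and 1276 (difference 1.77 ± 0.04, adjusted p = 3.39e-16), was called. Of 58 matrix glycoprotein and proteoglycan genes, 3 were higher and 14 lower, with a median of -0.09. The collagen-triple-helix repeat gene Cthrc1 (-1.31 ± 0.13), the keratan sulphate proteoglycan gene Lum (-1.13 ± 0.10) and the laminin chain gene Lama4 (-1.03 ± 0.10) were called lower, and the means of Lum and Lama4 in subclone 23 were below 5.3. A second Lama4 probe set, low in these arrays, differed by -0.045 and did not pass.

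Of 33 genes of lipid uptake, lipolysis and export, 10 were higher and 8 lower. The fatty acid receptor gene Cd36 had intensities of 168, 146 and 129 in subclone 23 and 7.94, 5.13 and 6.41 in subclone 24 (difference 2.86 ± 0.08, adjusted p = 1.52e-14), and 2 other probe sets differed by 3.18 and 0.57. Fabp4, for a cytosolic fatty acid carrier of adipocytes and macrophages, had 283, 238 and 260.1 against 49.9, 51.3 and 62.4 (difference 1.97 ± 0.11, adjusted p = 8.19e-11). The lipoprotein receptor gene Lrp1 was higher by 1.01 ± 0.08 and the acyl-CoA synthetase gene Acsl3 differed by -1.08 ± 0.06. Lrp1 lies on chromosome 10 (median difference 0.29) and Acsl3 on chromosome 1 (median difference -0.33), as described further on.

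Of 57 integrin, cadherin and adhesion genes, 13 were higher and 13 lower. After Cd34, the called genes were Itga7 (1.26) and Cdh13 (1.07) above and Pcdh18 (-1.13), Itgb8 (-1.06) and Cadm4 (-1.02) below. Itga7 had a mean below 5.3 in subclone 24. Of 42 epithelial genes, 4 were higher and 6 lower, and Ocln, for the tight junction protein occludin, had 80.1, 67.1 and 72.4 against 295, 342 and 355 (difference -1.96 ± 0.08, adjusted p = 2.41e-12). Foxa2, a transcription factor gene of endoderm and airway, was lower as well (-1.58 ± 0.07, adjusted p = 6.3e-12), while 4 of 19 lung epithelial markers were higher and 2 lower in all. Of 22 leukocyte markers, 2 were higher and 1 lower, and their summed intensity was 938 to 981 in subclone 23 and 1107 to 1157 in subclone 24. The lower one, Cd14, had intensities of 251, 230 and 238 against 394, 416 and 415, which is most of the gap between the sums. Cd14 means in the other 6 subclones lay between 8.52 and 9.04. Of 12 endothelial markers, 1 was higher and 0 lower by limma's adjusted p, with 1 lower at an unadjusted p under 0.05, and their summed intensity was 991 to 1057 and 911 to 932. The higher one, Flt1, had intensities of 489, 495 and 476 in subclone 23 and 329, 343 and 349 in subclone 24. The Flt1 gap alone is larger than that between the sums, and the list median was -0.07. Fibroblast and muscle markers had 3 of 17 genes higher and 3 lower. Whether other cells in the cultures take part in any difference was not tested, and in bulk RNA fewer cells of a type and less RNA per cell cannot be told apart.

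Genes of the response to low oxygen and of glycolysis were mostly higher in subclone 23, with 23 of 34 higher, 3 lower and a median of 0.27. They are activated by the HIF transcription factors when oxygen is scarce. Car9, for a surface carbonic anhydrase, had intensities of 62.8, 48.9 and 71.9 against 22.3, 17.8 and 15.98 (difference 1.15 ± 0.14, adjusted p = 2.22e-06). Among the classical targets, Ddit4 (0.95), Ndrg1 (0.94), Adm (0.91), Egln1 (0.76), Bnip3 (0.70) and Vegfa (0.53) passed. Of the glycolytic enzymes, Pfkl (0.86), Hk1 (0.57), Pfkp (0.42), Pkm (0.18), Aldoa (0.16) and Pgk1 (0.14) passed, while Ldha (0.09) and Tpi1 (0.03) did not. Ddit4, Pfkl and Hk1 lie on chromosome 10, where most genes were higher (median difference 0.29), as described further on. The members that were lower were the glucose transporter gene Slc2a3 (-0.56), Pfkfb3 (-0.36) and Hk2 (-0.31). Of these list members only Car9 reached a 2-fold difference, and its mean of 5.11 in subclone 24 was below 5.3, so its difference has no firm size.

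Sterol and fatty acid synthesis showed the opposite, with 0 of 33 genes higher, 22 lower and a median of -0.25. At an unadjusted p under 0.05 in limma, 0 were higher and 24 lower. In the order of the cholesterol pathway, Hmgcs1 differed by -0.38, Pmvk by -0.35, Idi1 by -0.75, Fdft1 by -0.24, Sqle by -0.70, Cyp51 by -0.58, Nsdhl by -0.46, Hsd17b7 by -0.93 and Sc5d by -0.53, all past the test. Hsd17b7 lies on chromosome 1, where the median difference was -0.33, as described further on. Fdps (0.01), Lss (-0.10) and Dhcr7 (-0.04), which catalyse other steps, did not pass. Insig1, the sterol-sensing feedback gene, differed by -0.53, and Srebf2, for the pathway's transcription factor, by -0.23. Of the fatty acid genes, Acly (-0.27), Acaca (-0.25) and Scd1 (-0.54) passed and Fasn (-0.15) did not. Elovl7 was the called gene (-1.03 ± 0.14, adjusted p = 1.42e-05), with a mean below 5.3 in subclone 23, and its 5 other probe sets differed by -0.30 to 0.11.

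Of 29 p53 targets, 17 were higher and 4 lower, with a median of 0.19. The cell cycle inhibitor gene Cdkn1a (0.55), the p53 ligase gene Mdm2 (0.59), the apoptosis genes Pmaip1 (0.83 ± 0.05), Bbc3 (0.52) and Apaf1 (0.66) were among those higher. Mdm2 and Apaf1 lie on chromosome 10, where the median difference was 0.29, as described further on. The death receptor gene Fas was lower (-0.87 ± 0.07, adjusted p = 2.42e-08), at 245, 245 and 246 against 473, 459 and 451, and so was the DNA repair gene Ddb2 (-0.55). 

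Output genes of the ERK kinase pathway had the largest median of the 33 lists, 0.33, with 15 of 27 higher and 6 lower. The phosphatase gene Dusp1 had intensities of 732, 679 and 698 against 259, 316 and 294 (difference 1.24 ± 0.08, adjusted p = 8.28e-10). Ier3 (0.97), Dusp5 (0.75), the EGF-receptor ligand genes Ereg (0.71) and Hbegf (0.68) and Ccnd1 (0.44) passed as well, whereas Egr2 (-0.99), Spry1 (-0.78) and Dusp2 (-0.55) were lower and Dusp6 (-0.05) and Spry4 (0.07) did not pass. Of 30 TGF-beta and YAP targets, 13 were higher and 5 lower, with a median of 0.14. Ankrd1, Arhgap29 (2.25 ± 0.06, adjusted p = 1.08e-14) and Amotl2 (1.17 ± 0.07, adjusted p = 5.68e-10) were called higher, while the YAP target Ccn2 differed by -0.09 and did not pass. Myl9, a smooth muscle myosin light chain gene, was called lower (-1.89 ± 0.10, adjusted p = 3.37e-11), with a mean below 5.3 in subclone 23.

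Of 33 Hox cluster genes, 13 were higher and 0 lower by limma's adjusted p, with a median of 0.07, and at an unadjusted p under 0.05 these numbers were 13 and 2. Hoxb9 had intensities of 85.5, 72.0 and 79.6 in subclone 23 and 7.58, 5.36 and 4.91 in subclone 24 (difference 2.11 ± 0.14, adjusted p = 7.39e-10), and Hoxa11 had 336, 361 and 371 and 160.2, 164 and 186 (difference 1.00 ± 0.09, adjusted p = 5.03e-08). Members of several clusters passed, among them Hoxa10 (0.88), Hoxd10 (0.74), Hoxd9 (0.47), Hoxc13 (0.48) and Hoxb4 (0.46), while Hoxb7 (-0.12), Hoxa9 (-0.12) and Hoxc8 (0.02) did not. Of the 33 genes, 14 had means below 5.3 in both subclones, and the mean of Hoxb9 was below 5.3 in subclone 24.

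Of 43 NRF2 targets and glutathione transferases, 19 were higher and 9 lower, with Gstt3 (1.26) and Gstt1 (1.05) called higher and the aldehyde oxidase gene Aox1 (-1.57) called lower. The Gstt3 mean in subclone 24 was below 5.3. Of 45 interferon-stimulated genes, 9 were higher and 11 lower, and Ifit1 was called, at 28.1, 7.49 and 29.3 against 54.98, 70.9 and 69.2 (difference -1.16 ± 0.19, adjusted p = 9.37e-05). The array of subclone 23 with the lowest Ifit1 intensity carries part of this difference, which was -0.85, under the 2-fold limit, without it. The Ifit1 mean in subclone 23 was below 5.3. Of 21 MHC class I and checkpoint genes, 6 were higher, among them the class I transactivator gene Nlrc5 (1.82 ± 0.10), and 6 lower, among them the peptide-trimming protease gene Erap1 (-1.15 ± 0.09).

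DNA replication and mitosis genes had 13 of 47 higher and 12 lower with a median of 0.00. None of them was called, and the 2 largest differences were those of the helicase subunit gene Mcm6 (-0.82) and the kinetochore gene Cenpf (-0.64). The ER stress and amino acid response had 12 of 42 higher and 15 lower, with Aldh1l2 (0.71) and Slc1a5 (-0.64) at the ends. A second Slc1a5 probe set differed by -0.01 and did not pass. Of 23 retinoid genes, 2 were higher and 3 lower, Crabp1 included. The apoptosis inhibitor and BCL2 family list had 7 of 24 higher, with Casp12 at 0.78, and 8 lower, with Bok at -0.76. Of 23 cytosolic ribosomal protein genes, 3 were higher and 1 lower, and the 2 largest differences were 0.30 for Rps25 and 0.19 for Rps15. Mcm6, Cenpf and Bok lie on chromosome 1, where most genes were lower in subclone 23 (median difference -0.33). Aldh1l2 and Rps15 lie on chromosome 10, where most were higher (median 0.29), as described further on.

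**Figure D3:**
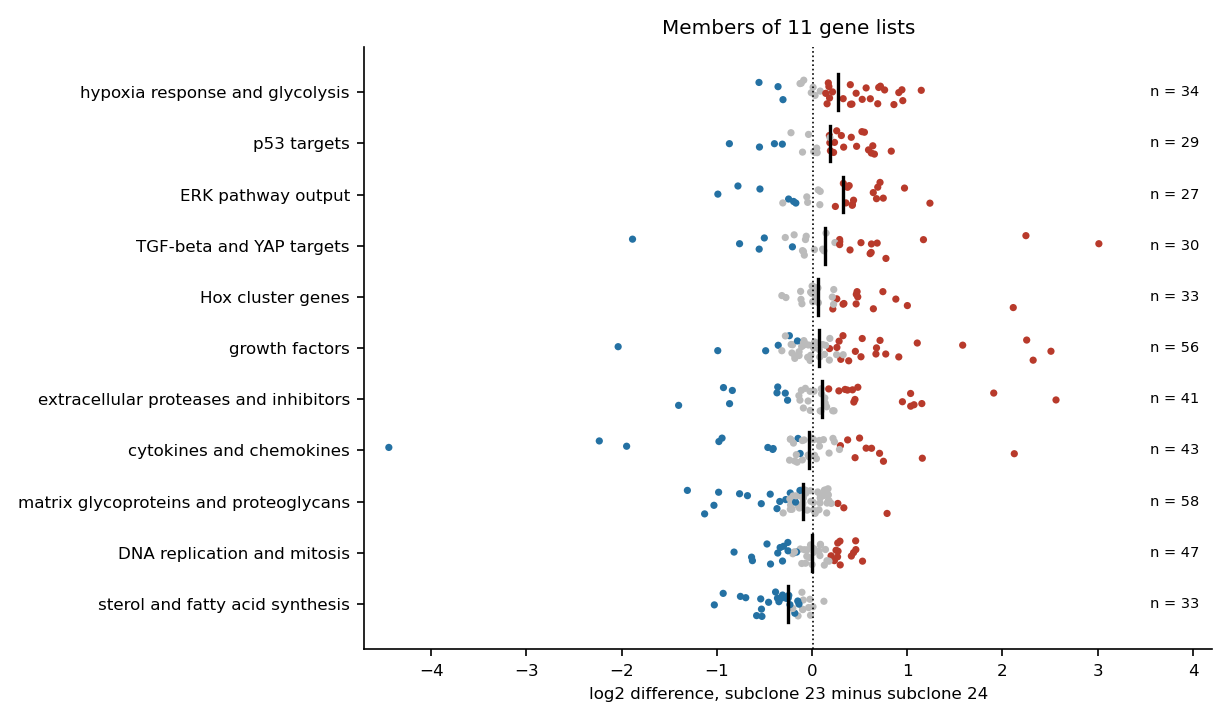
Log2 difference, subclone 23 minus subclone 24 (horizontal axis), of each measured member of 11 gene lists (rows), with members higher at an adjusted p under 0.05 in red, lower in blue and the rest in grey, a black bar at each list median and a dotted line at the median of all genes. The hypoxia list, with 23 of 34 members red, and the sterol list, with 22 of 33 blue and none red, lie on opposite sides.

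On several chromosomes most genes differed in the same direction. Over the 12310 genes of chromosomes 1 to 19 and X with a mean of at least 5.3 over all arrays, the median difference was 0.02. It was -0.33 on chromosome 1, 0.29 on chromosome 10 and 0.38 on chromosome 16, and between -0.17 and 0.21 on the other 17 chromosomes, with 0.21 on chromosome 8. Chromosomes 1, 10 and 16, whose medians were at least 0.2 away from that overall median, are described further. Smaller one-sided differences were found on chromosome 8 (372 genes higher and 33 lower at an adjusted p under 0.05), chromosome 3 (269 and 51), chromosome 13 (35 and 224), chromosome 15 (37 and 208) and chromosome 6 (57 and 253). In the 9 comparisons of 1 array of each subclone the median of chromosome 1 lay between -0.38 and -0.31, that of chromosome 10 between 0.26 and 0.33 and that of chromosome 16 between 0.35 and 0.45. DNA copy number was not measured.

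The subclone that differed from the rest was not the same for each chromosome. On chromosome 1 the median difference from the mean of the other 6 subclones was -0.34 for subclone 23 and -0.02 for subclone 24. On chromosome 10 it was 0.01 for subclone 23 and -0.24 for subclone 24, and on chromosome 16 it was 0.16 and -0.20. These pairs of values share the arrays of the other 6 subclones. Of the 720 chromosome 1 genes, 463 were lower and 28 higher at an adjusted p under 0.05. The shift ran the length of the chromosome, with medians from -0.34 to -0.31 over 5 equal blocks of genes in chromosome order. On chromosome 10 the block medians went from 0.35 in the first block to 0.25 in the last, while subclone 24 against the other 6 went from -0.44 to -0.11. Subclone 23 against the other 6 was at -0.107, -0.076, -0.001, 0.115 and 0.074 in these 5 blocks. Its 0.01 for the whole chromosome thus covers departures in both directions. On chromosome 16 they lay between 0.29 and 0.46, and 277 of 392 genes were higher and 6 lower.

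Individual genes went well beyond the shift, in its direction and against it. In its direction on chromosome 1, Tmem185b, the Wnt receptor gene Fzd5 (-1.73 ± 0.07), Aox1 (-1.57 ± 0.08), Ralgps2 (-1.43 ± 0.06) and Gulp1 (-1.38 ± 0.07) had the largest negative differences, although the second Fzd5 probe set differed by -0.15 and did not pass. In the direction of the shift on chromosome 10 the farthest were Fam13c, the Src-family kinase gene Fyn (1.45 ± 0.05), Sash1 (1.41 ± 0.07), Itga7 and Gstt3. A second Sash1 probe set, low in these arrays, differed by -0.11 and did not pass. Fyn intensities were 733, 733 and 731 in subclone 23 and 247, 255 and 271 in subclone 24. On chromosome 16 the farthest were Dppa4, App, Fstl1, Tmem45a (1.99 ± 0.09) and 2510009E07Rik (1.93 ± 0.06), and Col8a1 lies there too. The Tmem45a mean in subclone 24 was below 5.3, and the second 2510009E07Rik probe set differed by 0.18 and did not pass. Against the shift, Cd34 (5.28), Cpa6 (2.48) and Serpinb2 (1.91) on chromosome 1 were higher in subclone 23, and Tspan8 (-2.53), Pawr (-1.68) and Timp3 (-1.40) on chromosome 10 were lower. Cpa6 and Pawr were chosen after their values were seen. The share of tested genes that were called was 4.05% on chromosome 16, 2.33% on chromosome 10 and 2.08% on chromosome 1. Without these 3 chromosomes, and with the smaller one-sided differences of the others still included, 255 called genes remained, 153 higher and 102 lower.

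The list counts were also taken without members on chromosomes 1, 10 and 16, an alternative chosen after the shifts had been seen. Of the hypoxia and glycolysis genes 19 of 30 were then higher and 3 lower with a median of 0.18 against 0.27, of the sterol and fatty acid genes 0 of 31 higher and 21 lower, of the p53 targets 15 of 22 higher and 3 lower, and of the ERK output genes 13 of 22 higher and 5 lower. No Hox cluster gene lies on these chromosomes. The NRF2 and glutathione list had 12 of 32 higher and 7 lower, with a median of 0.06 against 0.16 for the whole list. The ER stress and amino acid list had 7 of 35 higher and 15 lower, with a median of -0.06 against 0.02. Collagen genes had 4 of 22 higher and 2 lower, with a median of -0.05 against 0.02, and adhesion genes 8 of 47 higher and 12 lower. The remaining lists are not given here.

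**Figure D4:**
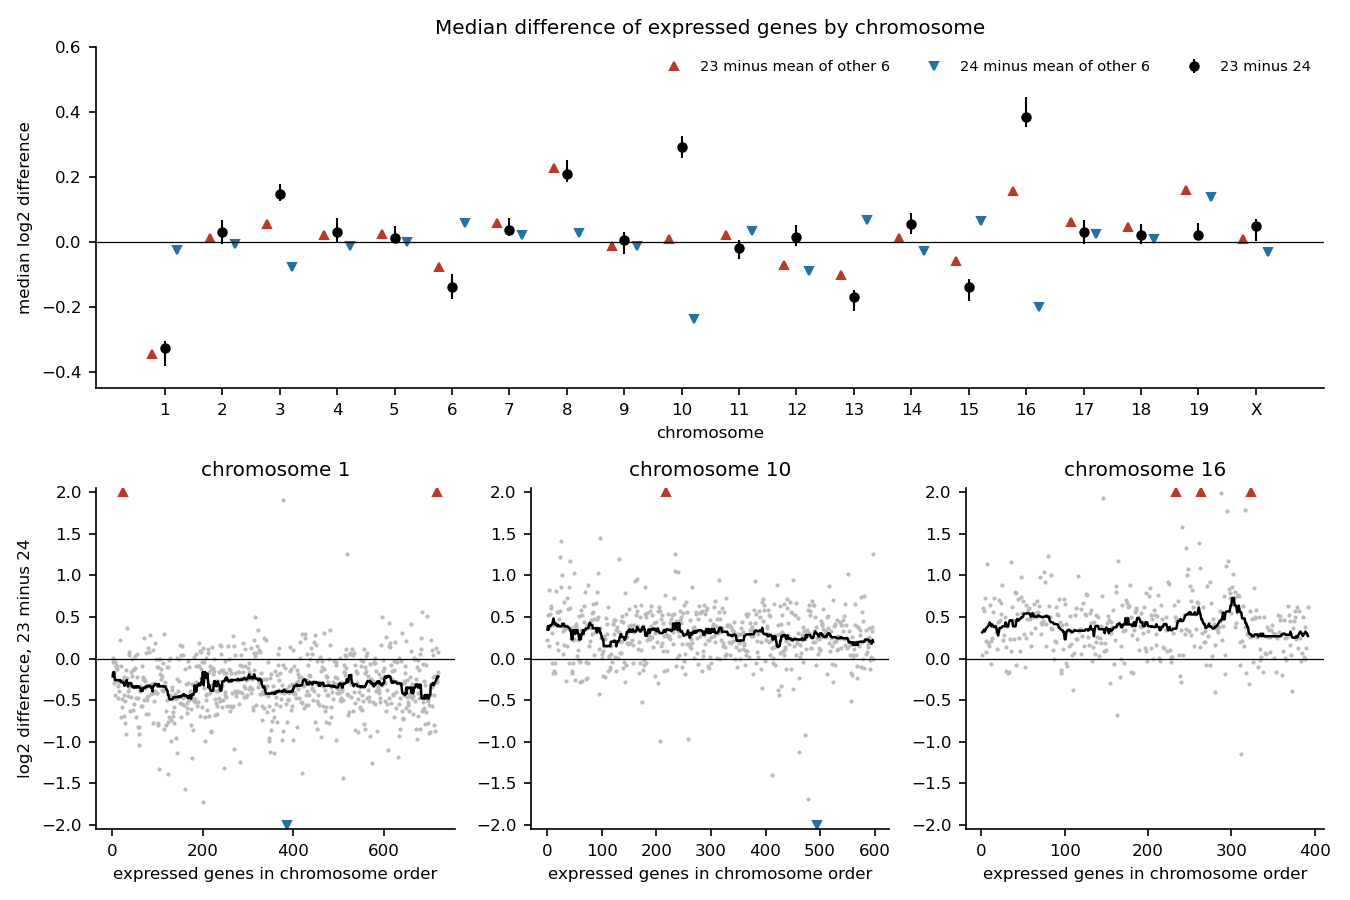
Top, median log2 difference of expressed genes on each chromosome for subclone 23 minus subclone 24 (black, with bars from the lowest to the highest of the 9 array pairs) and for each subclone minus the mean of the other 6 (red and blue triangles). Bottom, the difference of each gene on chromosomes 1, 10 and 16 in chromosome order with a running median over 31 genes, where triangles at the edge stand for genes beyond 2 log2 units. The running median stays below 0 along chromosome 1 and above 0 along chromosomes 10 and 16.

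Levels in the other 6 subclones (17 arrays) are not part of the difference itself, although these arrays entered the estimate of the spread and the choice of probe set. For each called gene the mean of each other subclone was placed on the side of subclone 23 or of subclone 24, divided at the midpoint of the pair. Of the 194 genes higher in subclone 23, 16 had all 6 other subclones on the side of subclone 24 and 13 had all 6 on the side of subclone 23. Of the 127 genes that were lower, these numbers were 15 and 10. The remaining 267 had other subclones on both sides. Subclones 2, 3 and 6 were on the side of subclone 23 for 24.7%, 38.1% and 34.5% of the higher genes and for 27.6%, 35.4% and 20.5% of the lower genes. Subclones 18, 19 and 28 were on that side for 53.6%, 59.3% and 65.5% of the higher genes and for 64.6%, 62.2% and 48.8% of the lower genes.

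Genes in which subclone 23 was on its side of the midpoint alone included Vegfd, Bmper, Ocln, Tmem185b, Foxa2 and Fzd5. Vegfd means in the other 6 subclones ran from 8.17 to 9.47, below the 10.57 of subclone 23, and Ocln means from 7.46 to 8.47, above its 6.48. Genes in which subclone 24 was on its side alone included 3110039M20Rik, Lif, Sash1, Tmem45a and 2510009E07Rik. The other 6 means of 3110039M20Rik lay between 7.82 and 8.19 against 4.50 in subclone 24, and those of Lif ran from 7.99 to 9.77 against 6.72. For Crabp1, Scara5, Itih5 and Basp1, 2 of the other 6 subclones were on the low side with subclone 23 and 4 on the high side with subclone 24. For Cd34, 3 were on the side of subclone 23, with means in all 6 from 4.54 to 10.11.

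**Figure D5:**
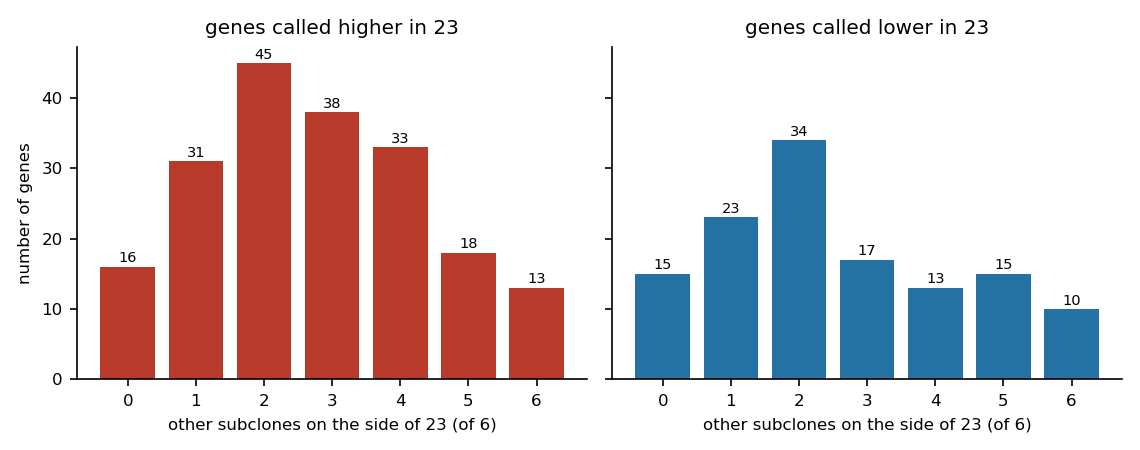
Number of called genes (vertical axes) by how many of the other 6 subclones had a mean on the side of subclone 23 (horizontal axes), for the 194 genes higher (left, red) and the 127 lower (right, blue) in subclone 23. Most genes lie between the ends, with 45 of the higher and 34 of the lower genes at 2 subclones.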

How the data were processed

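Total RNA from 23 samples of 8 LLC subclones was measured on Affymetrix arrays, and the values analysed are the table of linear intensities deposited by the authors (45101 probe sets). The labels give no dates or batches. The authors' algorithm and scaling were not given in the sources used here. RNA was isolated with Trizol and purified on columns, per the labels' protocols.

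Values were taken as log2(intensity + 16) without further scaling or filtering. Control probe sets (64) were left out. Probe sets with 1 gene symbol (34945) were named through GEO's platform annotation, with symbols updated through RefSeq's table of GRCm38.p6. Those with several symbols (932) or not listed (9160) stayed unnamed. Each of 18193 genes was represented by its probe set with the highest mean over all 23 arrays. A linear model with the 8 subclones as its terms was fitted across all 23 arrays (limma 3.58.1, R 4.3.3, 15 residual degrees of freedom), and the contrast of subclone 23 with subclone 24 was adjusted by Benjamini-Hochberg over all genes. The number of arrays limits the precision. The script was tested on simulated data. Promoter sequences and their coordinates are from RefSeq's GRCm38.p6 table, and the authors' files name no genome build.

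The pair, its members and the 33 gene lists (1057 genes measured besides those of the selection) were chosen with earlier results of these data known. Named genes are Bmp2, Slit2, Tesc, Dppa4 and Igf2r, the 15 called genes with the largest difference in each direction without overlap of arrays, up to 5 called members in each direction of each list (or, with none called, the 2 largest past the test) and the 5 largest on a chromosome whose median was at least 0.2 away from that of all expressed genes. Further list members were named after their values were seen.

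Alternatives were a pseudocount of 1 or 64, quantile normalization, only genes with a mean of at least 5.3, the mean of all probe sets of a gene, a fit on the 6 arrays alone, an intensity trend in eBayes, the replicate number as a block, and each array left out in turn.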

Additional observations from a re-analysis of the deposited data

How the results depend on the processing

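A pseudocount of 1 gave 543 called genes (304 higher, 239 lower in subclone 23), with all 6 other subclones on the side of subclone 24 for 57 and on the side of subclone 23 for 40, where the values reported were 321, 194, 127, 31 and 23. A pseudocount of 64 gave 178, 102, 76, 17 and 11. The mean of all probe sets gave 15 genes with all 6 other subclones on the side of subclone 23. The medians of chromosomes 1, 10 and 16 (reported as -0.33, 0.29 and 0.38) were -0.28, 0.24 and 0.35 with a pseudocount of 64, -0.36, 0.26 and 0.34 with quantile normalization and -0.28, 0.24 and 0.30 with the mean of all probe sets. The cause of these shifts was not tested. The other 107 of 127 such values stayed within 1.5 times the count, or within the spread over arrays, including those with each array left out in turn. Under these alternatives 0 of 1452 differences of named genes reversed, and the 1 that no longer passed was that of Cd68 in the fit on the 6 arrays alone. With some single arrays left out, the differences of Lama4, Cdh13, Itgb8, Cadm4, Ifit1, Elovl7, Hoxa11 and Lrp1 fell under the 2-fold limit (-0.85 for Ifit1 and 0.99 for Cdh13 and Lrp1 at the ends) and still passed by adjusted p. Of 990 counts of list members, 950 stayed within 1.5 times. Members higher in the hypoxia list numbered 16 to 24, in the p53 list 12 to 17, in the ERK list 15 to 16 and in the Hox list 10 to 13, and members lower in the sterol list 18 to 24. Same-numbered arrays of the pair shared only a number (correlations of their deviations -0.23, 0.18 and 0.07), and the replicate block left 321 called genes.

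Limits: no detection calls were used, and the level in one subclone was below 5.3 for 58 of the 194 genes called higher and 30 of the 127 called lower, whose differences have no firm size. Of 172 called genes with several probe sets, 121 had another past the test in the same direction and 2, Sorbs2 and Zfp975, had another past it in the opposite direction.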

Other observations

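Of the 10092 probe sets with no single gene symbol in the annotation used, 31 were called higher and 19 lower in subclone 23 (0.495%), and they were not analysed further here.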
